A study of Phyllostachys violascens with 18 samples.

Results

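NAC proteins are plant transcription factors that share a DNA-binding domain near the start of the protein. Their genes are described here in a bamboo, Phyllostachys violascens, and in its colour variant ‘Flavistriatus’. A gene was taken as a member when its deposited description named a NAC domain, a NAC transcription factor or the protein CUP-SHAPED COTYLEDON. This gave 119 members of 42520 genes in the table, on 25 scaffolds. Leaf RNA was compared between the typical plant and ‘Flavistriatus’, called the variant below, at a young, an immature and a mature stage, which makes 6 groups of 3 libraries. All plants grew in a greenhouse, and the labels give no treatment, genotype or age beyond plant type and leaf stage. The tissue field reads culms although each title says leaf, and the titles were followed. Whether replicates are different plants is not labelled, so the p-values rest on a spread between samples that may be technical.

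NAC factors act mainly as switches that turn other genes on or off. In Arabidopsis and rice, branches of the family start the building of thick secondary walls in water-conducting cells, keep young organs apart at their boundaries, shape roots under auxin, answer drought, salt and cold, and drive or delay leaf ageing. Some members are made as proteins anchored in a membrane and reach the nucleus after they are cut loose. A name below is that of the best described relative of the bamboo gene, and a role is what is known of that relative in Arabidopsis or, where said, in rice. The members carried 64 distinct descriptions from 16 plant relatives, and 92 members shared their description with another member, so counts of close copies may be mixed by the estimation, which leaves the values of single members uncertain.

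Total counts were 30268130 to 58374889 per library. Of the 42520 genes 37595 had enough counts to be tested, and these included 107 of the 119 members. The other 12 members reached at most 0.394 FPKM (fragments scaled by gene length and library size) in any library, and they included relatives of NAC 92, NAC 90-like, NAC 79 and NAM-1. Variant mature replicate 3 stood apart from both other libraries of its group, with a mean chi-square per gene of 203 and 268 against 49.7 between the others, and so did typical mature replicate 1, with 138 and 180 against 12.2. Values are given without a library for many called values that it moves by over 1.5 times and for some calls that it decides. A call printed without such a value may still depend on 1 library. The libraries of variant immature leaves, and some pairs in typical young and typical mature leaves, were closer to each other than other replicates were. Chlorophyll a-b binding and rubisco small subunit genes, taken as mesophyll markers, were seen in every library, with a summed level of at least 503.6 FPKM.

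Members differed widely in level. The median member had a mean of 1.41 FPKM over all 18 libraries, 52 members lay under 1 FPKM and 23 lay at 10 FPKM or more. The highest was a NAC 83-like gene, PH02Gene08630 (scaffold 13, bases 47757320 to 47760937, plus strand), with a mean of 80.5 FPKM, followed by NAC 41 PH02Gene19621 with 55.2 FPKM and NAC 82-like PH02Gene15532 with 45.4 FPKM. NAC 83 is known in Arabidopsis as a partner that holds back vessel formation and leaf ageing. Summed over all 119 members, the level was 403.7 ± 13.6 FPKM in typical young, 597.1 ± 27.6 in typical immature and 763.1 ± 40.1 in typical mature leaves (mean ± SD, n = 3). In the variant the sum was 524.7 ± 42.2 FPKM in young, 1187 ± 10.5 in immature and 1464 ± 360 in mature leaves. The variant sums lay above the typical sums at every stage without overlap, and the wide spread of the mature variant came from replicate 3 with 1879 FPKM against 1270 and 1243 FPKM. These sums carry no TMM factor, the scaling used in the tests. Of the 107 tested members 39 were highest on average in variant immature leaves, 29 in variant mature and 20 in variant young leaves. Another 8, 6 and 5 were highest in typical young, immature and mature leaves. The same counts over all genes are not given here, so this split is not known to be particular to these members. Over all genes tested too, all 3 variant libraries lay above all 3 typical ones in FPKM more often than below, at each stage.

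**Figure D1:**
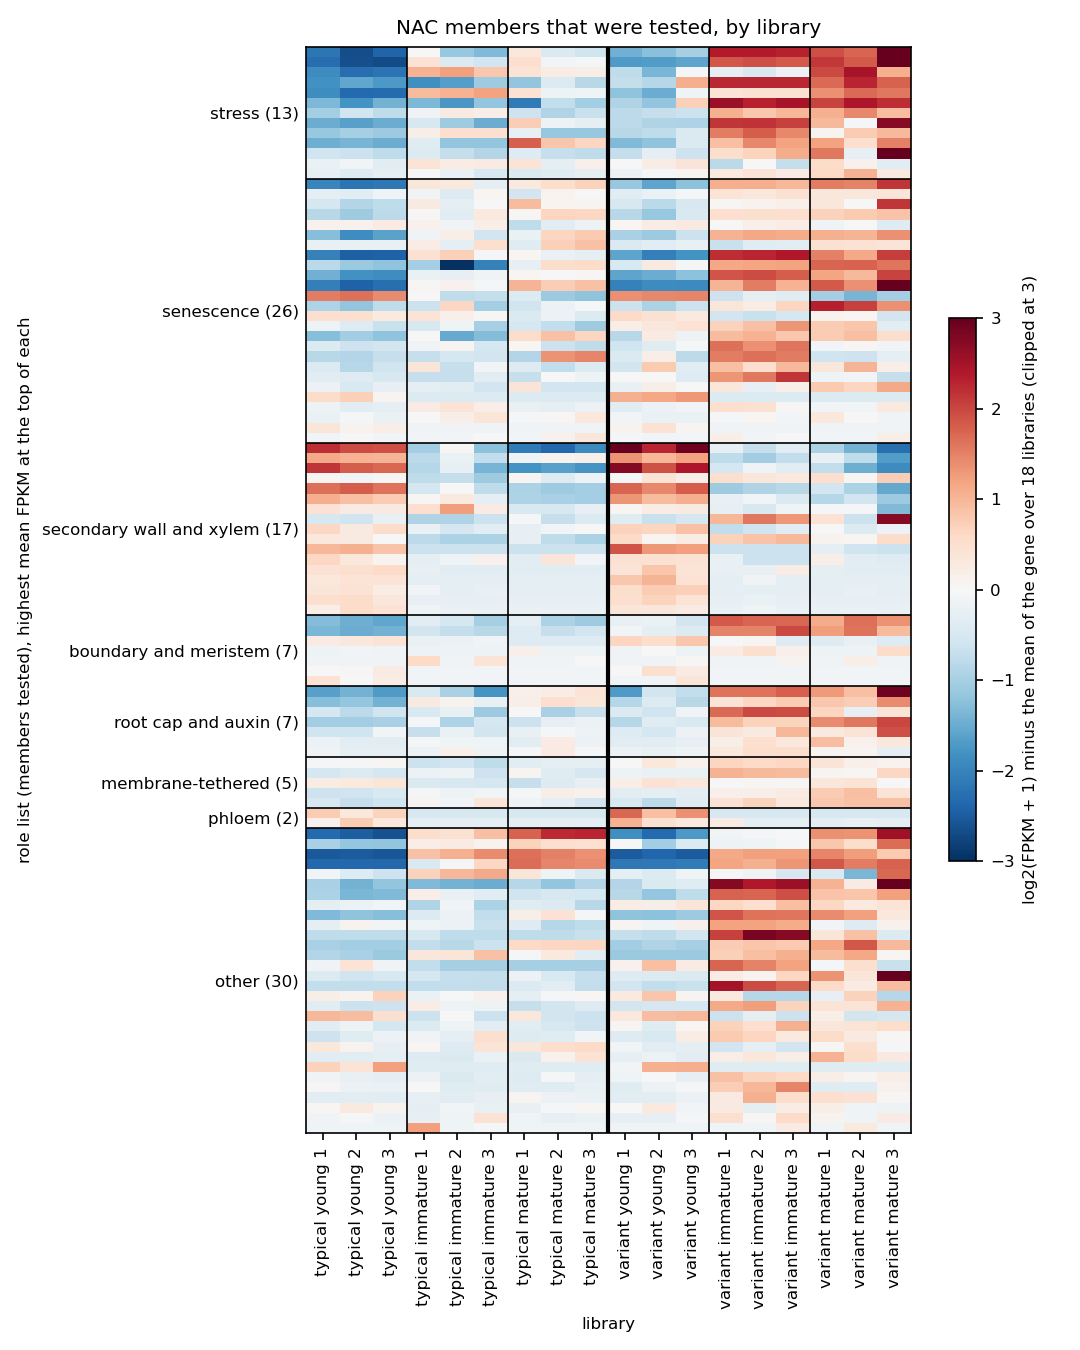
The 107 tested members, as log2(FPKM + 1) minus the mean of each gene over the 18 libraries, with members in rows ordered by role and libraries in columns. Red marks values above the mean of the gene. The stress members are mostly red in variant immature and mature leaves, and the wall and xylem members mostly red in young leaves of both plant types.

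Plant types were compared at each stage with the quasi-likelihood test of edgeR over all genes, and a gene is called here at an adjusted p under 0.05. In immature leaves 40 of the 107 tested members were higher in the variant and 11 were lower, against 21.7% higher and 23.1% lower among all genes tested. As shares the members had 37.4% higher and 10.3% lower, and their median log2 fold change was 0.88 against -0.01 over all genes, or 0.86 with members listed at 0 in a group raised to 3 counts in that group, a floor. In mature leaves 29 were higher and 2 lower, which is 27.1% and 1.87% of the members tested, against 14.9% and 9.65% of all genes. The median was 0.95 for members, or 0.90 with the floor, and 0.09 for all genes. In young leaves 4 members were called, all higher, against 0.149% higher and 0.0213% lower among all genes, while DESeq2 called 10 higher. An unadjusted p under 0.05 was reached in young leaves by 26 members with a positive and 1 with a negative log2 fold change, or 24.3% and 0.935%, against 5.11% and 1.94% of all genes. In FPKM, all 3 variant libraries lay above all 3 typical libraries in 35 members in young, 60 in immature and 49 in mature leaves. These are 32.7%, 56.1% and 45.8% of the members tested, against 14.4%, 40.8% and 29.4% of all genes. All 3 lay below in 0, 10 and 1 members, or 0%, 9.35% and 0.935%, against 8.61%, 17% and 8.16% of all genes.

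Fold changes are relative to the bulk of genes, which TMM sets level. Without TMM the median of all genes was 0.43 log2 units higher in the variant in immature and in mature leaves, and the share of called members that were higher in immature leaves went from 78.4% to 93.1%, or to 90.2% with limma on FPKM. The same shares over all genes were 48.4%, 74.1% and 72.8%. In mature leaves they were 93.5%, 97.7% and 98.1% for members and 60.7%, 85.1% and 78.4% for all genes. When libraries that nearly coincided were summed, 24 members were higher in immature and 15 in mature leaves, with the single variant immature library assumed to vary like the other groups. Of the mesophyll markers, 11 of 14 tested, 10 were lower and 1 higher in variant immature leaves, with a summed level of 1576 to 1621 FPKM against 14730 to 20280 FPKM in typical immature leaves. At the mature stage the range was 546 to 3989 FPKM in the variant against 4744 to 6708 FPKM in the typical plant. From 1 to 3 of the 14 genes were listed at 0 in a whole group, and the part of the mesophyll in the NAC differences was not tested. Of 61 epidermis markers, 56 of them tested, 5 were higher and 20 lower in variant immature leaves, and 17 were higher and 1 lower in variant mature leaves. Of 48 xylem markers, 41 of them tested, 15 were higher and 10 lower in immature and 23 were higher in mature leaves of the variant. The part of these cell types in the NAC differences was not tested either. In bulk leaf, fewer cells of a type and less RNA per cell cannot be told apart.

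**Figure D2:**
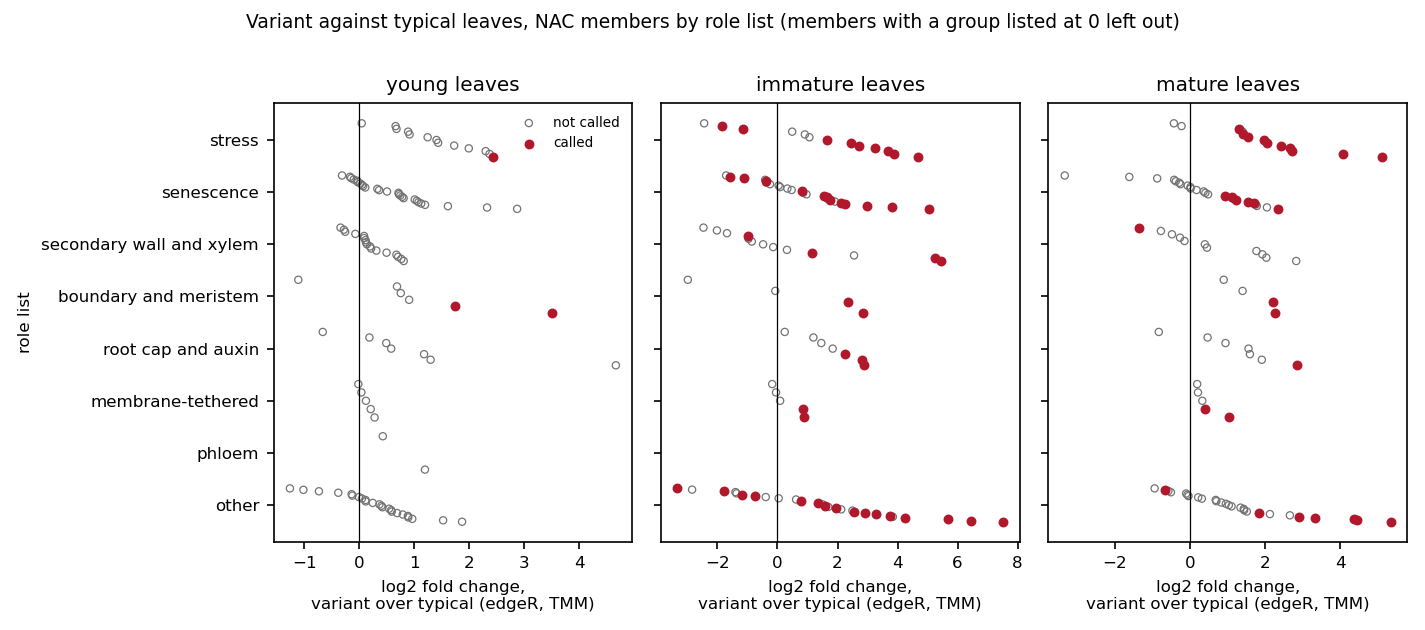
Log2 fold change of variant over typical leaves (edgeR with TMM) for each tested member, by role list and leaf stage, with called members filled in red and members with a group listed at 0 left out. In immature and mature leaves most filled points lie to the right of 0, and stress members make up 9 of the filled points in immature and 10 in mature leaves.

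The stress list, relatives of genes that answer drought, salt and cold, had 13 members, all tested. In immature leaves 7 were higher and 2 lower in the variant, with a median log2 fold change of 1.64, and in mature leaves 10 were higher, with a median of 1.96. Without variant mature replicate 3, 8 of the 13 were higher in mature leaves, and 5 were with near-alike libraries summed. In young leaves 1 was called, and all 13 had a positive log2 fold change. NAC 48 of rice, also known as SNAC2, is a stress-induced factor whose overproduction raises tolerance to cold, salt and drought in rice. NAC 48-like PH02Gene10707 (scaffold 16, bases 13166168 to 13168661, plus strand) had 16.6, 7.01 and 6.06 FPKM in typical immature and 90.9, 89.98 and 86.2 FPKM in variant immature leaves. In mature leaves it had 20.7, 11.9 and 10.6 FPKM in the typical plant and 66.3, 57.6 and 173 FPKM in the variant. Every variant library lay above every typical library at both stages, and replicate 3 was the highest mature value. The log2 fold change was 2.73 ± 0.44 (SE) in immature leaves (edgeR adjusted p = 0.000186) and 2.42 ± 0.44 in mature leaves (edgeR adjusted p = 0.00135), or 1.78 without variant mature replicate 3. In young leaves it had 2.92, 1.77 and 2.32 FPKM in the typical plant and 5.45, 6.41 and 7.85 FPKM in the variant, without overlap, but this difference was not called (1.44 ± 0.43, edgeR adjusted p = 0.284).

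Its relative NAC 48 PH02Gene07883 (scaffold 14, bases 75648100 to 75650453, minus strand) had 17.3, 9.06 and 8.08 FPKM in typical immature and 48.2, 50.5 and 47.4 FPKM in variant immature leaves. In mature leaves the values were 18.2, 11.7 and 12.3 FPKM against 57.9, 47.6 and 117 FPKM. The groups did not overlap at either stage, and the log2 fold change was 1.64 ± 0.33 in immature (edgeR adjusted p = 0.00105) and 2.05 ± 0.34 in mature leaves (edgeR adjusted p = 0.000705). Both genes also rose from young to immature leaves in each plant type, by 2.58 ± 0.44 and 3.59 ± 0.36 log2 units in the typical plant and by 3.87 ± 0.47 and 3.98 ± 0.37 in the variant. NAC 48 PH02Gene40137 was higher in variant immature leaves, with 14.4 ± 0.672 FPKM against 0.826 ± 0.649 (mean ± SD, n = 3; log2 fold change 3.69 ± 0.73, edgeR adjusted p = 0.000892). NAC 48 PH02Gene15515 was also higher there, with 7.28 ± 1.56 against 0.984 ± 0.693 FPKM (2.44 ± 0.55, edgeR adjusted p = 0.00226). Without typical immature replicate 1 these values were 4.47 and 3.16. In mature leaves neither of these NAC 48 genes was called.

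A pair of genes described as a stress responsive NAC transcription factor had the largest log2 fold changes of the stress list in immature leaves. PH02Gene04473 (scaffold 16, bases 24066960 to 24068911, plus strand) had 1.16, 1.45 and 2.72 FPKM in typical immature and 36.1, 35.9 and 36.4 FPKM in variant immature leaves. In mature leaves it had 2.43, 4.85 and 3.35 FPKM in the typical plant and 24.3, 36.7 and 25.6 FPKM in the variant. The variant was high in every library of both stages, and the log2 fold change was 3.88 ± 0.53 in immature (edgeR adjusted p = 4.28e-05) and 2.72 ± 0.50 in mature leaves (edgeR adjusted p = 0.0015). PH02Gene03725 (scaffold 14, bases 65944191 to 65945517, minus strand) had 0.727, 0.294 and 0.927 FPKM in typical immature and 25.3, 21.1 and 23.3 FPKM in variant immature leaves. In mature leaves the values were 0, 1.64 and 1.16 FPKM against 16.8, 22.4 and 19.3 FPKM. Again no library of the variant came near a typical library, and the log2 fold change was 4.67 ± 0.94 in immature (edgeR adjusted p = 0.000968) and 4.07 ± 0.91 in mature leaves (edgeR adjusted p = 0.00497), or 4.73 without typical mature replicate 2. In variant young leaves replicate 3 had 15.6 FPKM of PH02Gene04473 and 6.23 FPKM of PH02Gene03725, above the other replicates at 3.74 and 3.30 FPKM and at 1.34 and 0.934 FPKM.

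NAC 67 of rice is a further stress-induced factor. NAC 67 PH02Gene04543 was higher in variant mature leaves, with 10.6, 13.9 and 9.5 FPKM against 2.56, 1.93 and 2.47 FPKM in typical mature leaves (1.96 ± 0.22, edgeR adjusted p = 6.13e-05). It fell by 1.21 ± 0.22 log2 units from immature to mature leaves in the typical plant (edgeR adjusted p = 0.000852), and the difference of this change between plant types was called (1.47 ± 0.31, edgeR adjusted p = 0.00593). NAC 67 PH02Gene25075 was higher in mature leaves too, with 5.92 ± 2.07 against 1.59 ± 1.01 FPKM (1.54 ± 0.39, edgeR adjusted p = 0.0098), or 2.27 without typical mature replicate 1. NAC 48-like PH02Gene12270 had 4.5, 0.566 and 24.9 FPKM in variant mature leaves and at most 0.42 FPKM in a typical mature library. It was called higher (5.09 ± 1.27, edgeR adjusted p = 0.00959), and the call was lost without replicate 3 (3.15, edgeR adjusted p = 0.0555), while without typical mature replicate 1 the value was 6.001.

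Of 20 genes of abscisic acid synthesis and drought protection, which stress NAC factors of rice are known to act with, 12 were tested. In immature leaves 4 were higher and 2 lower in the variant, and in mature leaves 4 were higher. Of all genes tested, 21.7% were higher and 23.1% lower in immature leaves, and 14.9% and 9.65% in mature leaves. A late embryogenesis abundant protein Lea14-A-like gene, PH02Gene27068, of a family that protects drying cells, had 29.7 ± 0.4 FPKM in variant and 10.2 ± 3.54 FPKM in typical immature leaves (1.09 ± 0.27, edgeR adjusted p = 0.00457). The putative 9-cis-epoxycarotenoid dioxygenase PH02Gene49504, an enzyme of abscisic acid synthesis, had 6.13 ± 0.4 against 0.141 ± 0.0707 FPKM there (4.98 ± 0.70, edgeR adjusted p = 6.07e-05). Another gene of the same enzyme family, NCED3 PH02Gene40492, was lower, with 0.414 ± 0.16 against 3.14 ± 0.32 FPKM (-3.34 ± 0.64, edgeR adjusted p = 0.000681).

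**Figure D3:**
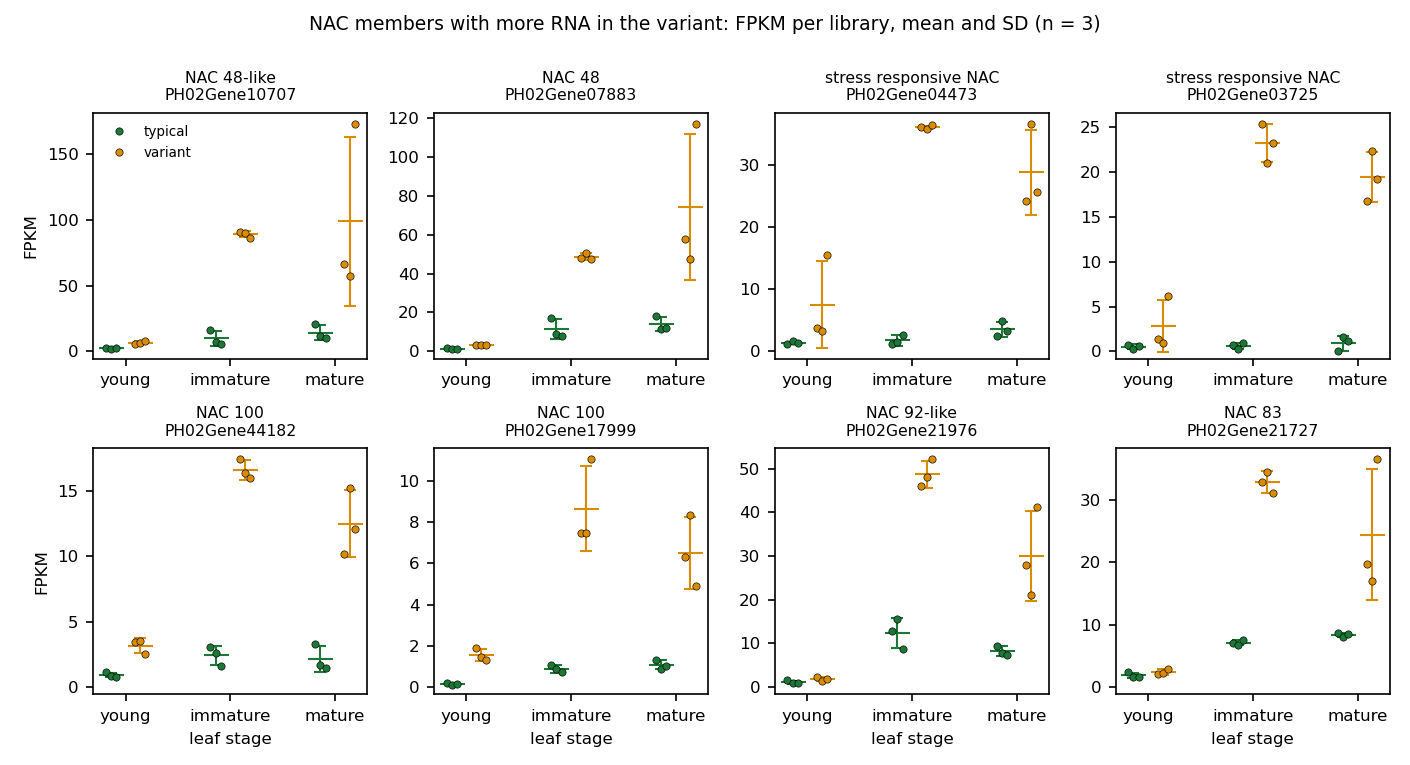
FPKM of 8 members in each library, by leaf stage, with typical leaves in green and variant leaves in orange and bars for mean and SD (n = 3). In immature leaves all 3 variant points lie above all 3 typical points in each of the 8 genes, and variant mature replicate 3 is the high orange point of NAC 48-like PH02Gene10707 with 173 FPKM.

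The NAC 67-like pair moved the other way in immature leaves. NAC 67-like PH02Gene34765 (scaffold 21, bases 5438431 to 5440250, minus strand) had 35.2, 39.9 and 29.6 FPKM in typical immature and 13.3, 11.7 and 14.4 FPKM in variant immature leaves. In mature leaves the typical plant had 22.1, 19.3 and 19.03 FPKM and the variant 68.2, 96.0 and 35.3 FPKM. The groups changed order between the stages without overlapping at either, with the variant low in immature and high in mature leaves. The log2 fold change of variant over typical was -1.86 ± 0.35 in immature (edgeR adjusted p = 0.000642) and 1.41 ± 0.35 in mature leaves (edgeR adjusted p = 0.00897). The typical plant rose by 4.04 ± 0.39 log2 units from young to immature leaves (edgeR adjusted p = 4.64e-07), whereas the variant value was 0.45 ± 0.34 (edgeR adjusted p = 0.276). The difference between these changes was -3.58 ± 0.50 (edgeR adjusted p = 0.000198), and the difference in the change from immature to mature leaves was 3.26 ± 0.49 (edgeR adjusted p = 0.00102).

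The other member of the pair, PH02Gene29164 (scaffold 15, bases 97232075 to 97234921, plus strand), had 0.805, 0.322 and 0.336 FPKM in typical young and 1.87, 1.34 and 5.04 FPKM in variant young leaves. In immature leaves it had 11.8, 12.6 and 14.3 FPKM in the typical plant and 7.76, 8.10 and 8.07 FPKM in the variant. In mature leaves it had 7.94, 4.94 and 5.02 FPKM against 16.1, 20.3 and 18.9 FPKM. The variant was thus higher in young, lower in immature and higher in mature leaves, each time without overlap, and log2 fold changes were 2.43 ± 0.44 (edgeR adjusted p = 0.0475), -1.15 ± 0.41 (0.0331) and 1.29 ± 0.41 (0.0333). These 3 calls lay near the threshold. Without variant young replicate 3 the young value was 1.69. The young call was lost under 18 and the immature call under 8 of 25 other settings, including the fit without TMM (edgeR adjusted p = 0.211 in immature leaves).

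Further members lower in variant immature leaves included NAC 41 PH02Gene19621 (scaffold 3, bases 9770178 to 9772247, minus strand), a gene of the other list. It had 43.6, 41.5 and 57.0 FPKM in typical and 28.1, 28.7 and 30.1 FPKM in variant immature leaves. The groups did not overlap, and the log2 fold change was -1.17 ± 0.28 (edgeR adjusted p = 0.00313), but 0.0727 was the adjusted p of edgeR without TMM. This gene rose with stage in both plant types, to 132 ± 24.4 FPKM in typical and 111 ± 57.9 FPKM in variant mature leaves. NAC 35 is known in Arabidopsis as LOV1, a factor that delays flowering and raises cold tolerance, and NAC 35 PH02Gene16115 was at 24.2 ± 1.11 FPKM in variant against 29.8 ± 1.53 FPKM in typical immature leaves (-0.75 ± 0.27, edgeR adjusted p = 0.0361). NAC 83-like PH02Gene05802 was lower as well, at 1.53 ± 0.128 against 3.42 ± 0.569 FPKM (-1.59 ± 0.30, edgeR adjusted p = 0.000641). Of the 11 lower calls, 2 were kept under every setting other than the summing of near-alike libraries, those of PH02Gene34765 and PH02Gene05802. Leaving out each of the 18 libraries in turn kept 4 of the 11.

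**Figure D4:**
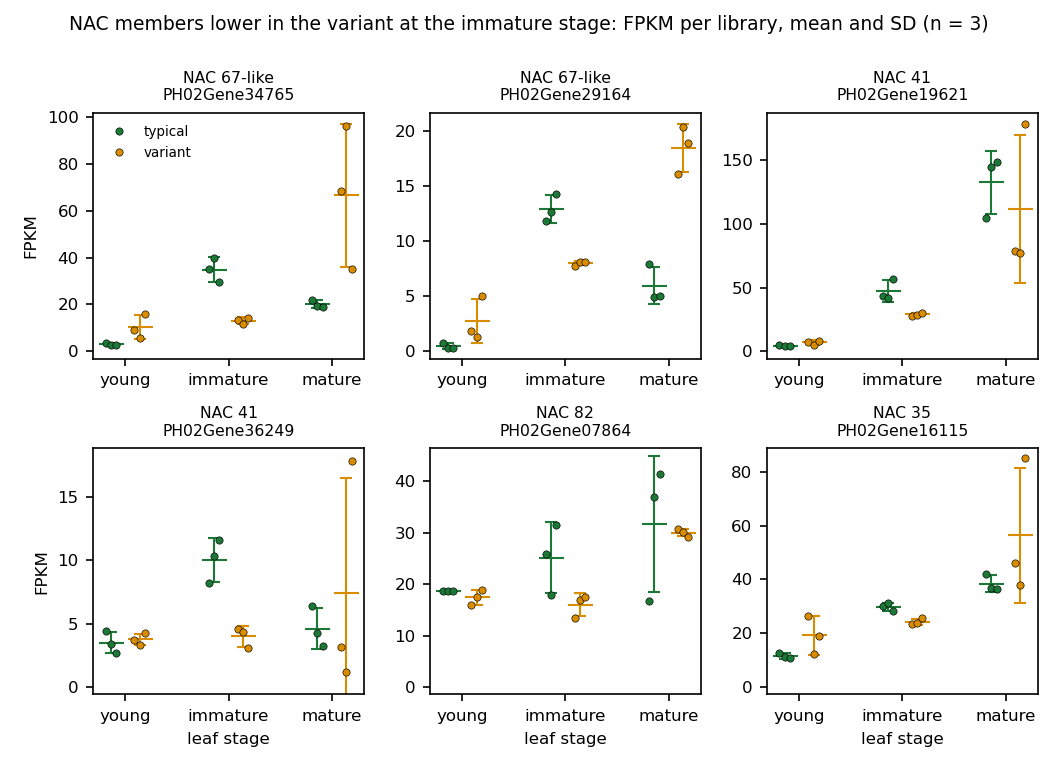
FPKM of 6 members that were lower in variant than in typical immature leaves, per library, with mean and SD (n = 3). In both NAC 67-like genes the orange variant points lie below the green typical points in immature leaves and above them in mature leaves.

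The senescence list, relatives of genes that drive or slow leaf ageing, had 32 members, of which 26 were tested. In immature leaves 9 were higher and 3 lower in the variant, and in mature leaves 6 were higher, with medians of 0.65 and 0.27. Summing near-alike libraries left 3 higher in immature and 4 in mature leaves. NAC 92, called ORE1 in Arabidopsis, promotes leaf ageing and the breakdown of chlorophyll there. NAC 92-like PH02Gene21976 (scaffold 3, bases 59004171 to 59006074, plus strand) had 12.8, 15.5 and 8.67 FPKM in typical immature and 46.01, 48.1 and 52.1 FPKM in variant immature leaves. In mature leaves it had 9.43, 7.77 and 7.39 FPKM against 27.9, 21.03 and 41.2 FPKM. The variant was higher without overlap at both stages, by 1.54 ± 0.28 (edgeR adjusted p = 0.000503) and 1.53 ± 0.28 log2 units (edgeR adjusted p = 0.00157). NAC 92 PH02Gene19279 was higher in immature leaves, with 40.5 ± 1.63 against 16.8 ± 4.61 FPKM (0.82 ± 0.24, edgeR adjusted p = 0.011). NAC 92 PH02Gene46177 was higher in mature leaves, with 18.9, 15.6 and 9.35 FPKM against 1.63, 2.54 and 2.85 FPKM (2.34 ± 0.49, edgeR adjusted p = 0.0036).

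NAC 29 of Arabidopsis, also called NAP, promotes leaf ageing. NAC transcription factor 29-like PH02Gene22100 had 4.87, 0.426 and 1.92 FPKM in typical immature and 25.4, 26.0 and 26.3 FPKM in variant immature leaves. The groups lay far apart (2.99 ± 0.53, edgeR adjusted p = 0.000387), and the value was 3.97 without typical immature replicate 1. In mature leaves it had 13.8 ± 4.15 FPKM in the typical plant and 37.7 ± 2.41 FPKM in the variant, a difference that was not called (1.14 ± 0.50, edgeR adjusted p = 0.105). The NAC 83 gene PH02Gene21727 (scaffold 12, bases 30920553 to 30922652, plus strand) had 7.002, 6.75 and 7.53 FPKM in typical immature and 32.96, 34.6 and 31.1 FPKM in variant immature leaves. The groups did not overlap, and the variant was higher by 1.76 ± 0.24 log2 units in immature (edgeR adjusted p = 4.03e-05) and by 1.22 ± 0.23 in mature leaves (edgeR adjusted p = 0.00201). NAC 83-like PH02Gene08630, the member with most RNA, had 68.8, 80.2 and 90.8 FPKM in typical mature and 164, 159 and 249 FPKM in variant mature leaves. It was higher in the variant there (0.93 ± 0.19, edgeR adjusted p = 0.00285), and was not called with the groups compared fitted alone (edgeR adjusted p = 0.0579).

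NAC 82 slows leaf ageing in Arabidopsis. NAC 82-like PH02Gene15532 had 58.5 ± 2.92 FPKM in variant and 40.2 ± 6.08 FPKM in typical immature leaves, with a log2 fold change of 0.09 ± 0.15 (edgeR adjusted p = 0.671). NAC 82 PH02Gene07864 was called lower in variant immature leaves, with 13.5, 16.98 and 17.6 FPKM against 25.9, 17.8 and 31.6 FPKM (-1.10 ± 0.25, edgeR adjusted p = 0.00208). That call was lost with limma on FPKM, without TMM and with near-alike libraries summed. Of 27 genes of senescence and chlorophyll breakdown 18 were tested, and 2 were higher and 5 lower in variant immature leaves. In mature leaves 3 were higher and 2 lower. Of all genes tested, 21.7% were higher and 23.1% lower in immature leaves, and 14.9% and 9.65% in mature leaves. Pheophytinase PH02Gene22037, an enzyme of chlorophyll breakdown, was higher in variant immature leaves, with 129 ± 8.82 against 28.9 ± 4.11 FPKM (1.70 ± 0.50, edgeR adjusted p = 0.0116). Another pheophytinase gene, PH02Gene37848, was lower there, with 3.80 ± 0.262 against 15.4 ± 6.15 FPKM (-2.47 ± 0.27, edgeR adjusted p = 7.39e-06). The list median was -0.57 in immature and 0.88 in mature leaves.

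The boundary list held relatives of CUP-SHAPED COTYLEDON genes, which keep organs apart, and members placed there by the name NAC 100. It had 8 members, of which 7 were tested, and its calls came mostly from a pair described as NAC 100. NAC 100 belongs in Arabidopsis to the group held down by the microRNA miR164, together with CUP-SHAPED COTYLEDON genes. PH02Gene17999 (scaffold 4, bases 1397060 to 1398940, minus strand) had 0.175, 0.0732 and 0.14 FPKM in typical young and 1.89, 1.46 and 1.3 FPKM in variant young leaves. In immature leaves it had 1.08, 0.846 and 0.712 FPKM against 7.46, 7.48 and 11.04 FPKM. In mature leaves the values were 1.32, 0.884 and 1.02 FPKM against 6.29, 8.37 and 4.89 FPKM. The variant was higher without overlap at all 3 stages, by 3.51 ± 0.37 (edgeR adjusted p = 0.00279), 2.85 ± 0.34 (1.39e-05) and 2.26 ± 0.33 log2 units (0.000318). Its young call was lost under the summing of near-alike libraries (edgeR adjusted p = 0.247).

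The second NAC 100 gene, PH02Gene44182 (scaffold 19, bases 27423712 to 27425527, plus strand), had 1.11, 0.862 and 0.758 FPKM in typical young and 3.45, 3.53 and 2.54 FPKM in variant young leaves. In immature leaves it had 3.09, 2.57 and 1.60 FPKM against 17.5, 16.4 and 16.04 FPKM. In mature leaves it had 3.26, 1.69 and 1.45 FPKM against 10.2, 15.2 and 12.1 FPKM. It too was higher in the variant without overlap at all stages, by 1.75 ± 0.33 (edgeR adjusted p = 0.0498), 2.33 ± 0.33 (5.8e-05) and 2.21 ± 0.33 log2 units (0.000352). The young call stood at the threshold and was lost under 16 of 25 other settings. Of the CUP-SHAPED COTYLEDON members, PH02Gene44613 was called in immature leaves, where it was listed at 0 in every typical library and had a mean of 0.364 FPKM in the variant. Among 81 other boundary and meristem genes, of which 65 were tested, 14 were higher and 9 lower in variant immature leaves. Of all genes tested, 21.7% were higher and 23.1% lower there. The BEL1-like homeodomain protein 1 gene PH02Gene22367, a meristem and leaf-shape regulator, was higher there, with 73.9 ± 0.98 against 21.8 ± 4.24 FPKM (1.32 ± 0.20, edgeR adjusted p = 0.000104). The BEL1 homolog PH02Gene17085, of the same family, was lower, with 75.5 ± 9.58 against 103 ± 25.6 FPKM (-0.89 ± 0.32, edgeR adjusted p = 0.0323).

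Relatives of NAC 21/22, known in Arabidopsis as NAC1, a gene of auxin signalling in lateral root growth, made up the root list with 8 members, of which 7 were tested. In immature leaves 3 were higher in the variant, with a list median of 1.84, and in mature leaves 1 was higher. NAC 21/22 PH02Gene13734 had 2.80, 1.64 and 0.541 FPKM in typical and 15.2, 15.1 and 16.96 FPKM in variant immature leaves. The groups did not overlap (2.81 ± 0.60, edgeR adjusted p = 0.00156). NAC 21/22 PH02Gene07625 had 1.03, 1.41 and 0.318 FPKM against 8.07, 9.99 and 9.84 FPKM (2.89 ± 0.57, edgeR adjusted p = 0.000886).

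The membrane-tethered list had 5 members, all tested, and 2 were higher in variant immature leaves and 2 in variant mature leaves. NAC 14 PH02Gene05356 had 21.9, 22.8 and 19.9 FPKM in typical and 55.01, 51.5 and 53.4 FPKM in variant immature leaves. The spread within each group was small beside the gap (0.86 ± 0.11, edgeR adjusted p = 3.94e-05). NAC 14 PH02Gene02567 showed the same order, with 26.0 ± 4.48 against 65.0 ± 2.32 FPKM (0.88 ± 0.19, edgeR adjusted p = 0.00167). NAC 17, which in Arabidopsis carries signals from mitochondria to the nucleus, was PH02Gene04645. It had 4.06, 3.40 and 2.65 FPKM in typical mature and 8.39, 8.95 and 8.90 FPKM in variant mature leaves (1.04 ± 0.22, edgeR adjusted p = 0.00377), and its log2 fold change in immature leaves was -0.05 ± 0.22 (edgeR adjusted p = 0.899).

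Several members without a role in the lists were nearly silent in typical immature leaves and had clear levels in the variant. NAC transcription factor 1 PH02Gene19280 (scaffold 15, bases 46175923 to 46178647, plus strand) had 0.121, 0.0559 and 0 FPKM in typical and 17.99, 13.9 and 15.7 FPKM in variant immature leaves. NAC transcription factor 4 PH02Gene02411 (scaffold 7, bases 36047607 to 36048934, plus strand) had 0.218, 0 and 0 FPKM in typical and 6.01, 11.2 and 10.2 FPKM in variant immature leaves. NAC 77 PH02Gene03449 had 0 in each of the 3 typical immature libraries and had 8.46, 5.51 and 4.56 FPKM in the variant. Each of these was high in every variant library and at or near 0 in every typical library. The log2 fold change was 7.52 ± 1.12 for PH02Gene19280 (edgeR adjusted p = 9.27e-05) and 6.43 ± 1.39 for PH02Gene02411 (edgeR adjusted p = 0.00218). The first was 8.59 without typical immature replicate 1 and 6.91 without replicate 3, and the second was 5.84 without replicate 3 and rests on the count of typical immature replicate 1 alone. In mature leaves PH02Gene19280 had 4.83, 2.31 and 28.1 FPKM in the variant and at most 0.56 FPKM in a typical library (4.36 ± 0.93, edgeR adjusted p = 0.00381), and without variant mature replicate 3 the value was 2.69 (edgeR adjusted p = 0.0136). NAC 77 PH02Gene19527 was higher in variant immature leaves, with 7.46 ± 0.956 against 0.921 ± 0.379 FPKM (2.56 ± 0.44, edgeR adjusted p = 0.000307). NAC 90 slows leaf ageing in Arabidopsis, and NAC 90-like PH02Gene33138 was higher in variant leaves in the immature (1.94 ± 0.36, edgeR adjusted p = 0.000593) and mature stage (1.82 ± 0.37, edgeR adjusted p = 0.00262). NAC 52, which in Arabidopsis works with a histone demethylase to keep genes silent, was PH02Gene32534, with 5.46 ± 0.203 FPKM in variant against 1.33 ± 0.448 FPKM in typical immature leaves (1.59 ± 0.34, edgeR adjusted p = 0.00163).

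The secondary wall and xylem list had 17 members, all tested, and was called most often between young and immature leaves. From young to immature leaves 12 of 17 fell in the typical plant, with a median log2 fold change of -2.59, and 12 fell and 1 rose in the variant, with a median of -3.11. Over all genes 29.2% rose and 30.4% fell in the typical plant and 27.0% rose and 28.6% fell in the variant. Without TMM 14 fell in typical and 12 in variant leaves, and with near-alike libraries summed 10 and 5 fell. NAC 73, known in Arabidopsis as SND2, and NAC 43, known as NST1, switch on genes of the secondary wall. NAC 73-like PH02Gene41502 (scaffold 16, bases 46811263 to 46815188, plus strand) had 22.7, 18.9 and 18.5 FPKM in typical young and 1.52, 4.29 and 1.17 FPKM in typical immature leaves. In the variant it had 43.3, 24.1 and 37.9 FPKM in young and 3.31, 2.17 and 3.15 FPKM in immature leaves. Young leaves were above immature leaves in every library of both plant types, and the fall was -2.60 ± 0.81 log2 units in the typical plant (edgeR adjusted p = 0.0116; -3.39 without typical immature replicate 2) and -3.51 ± 0.84 in the variant (edgeR adjusted p = 0.00243). By the mature stage it was at 0.191 ± 0.185 FPKM in the typical plant and 0.892 ± 0.798 FPKM in the variant.

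A second NAC 73-like gene, PH02Gene22932 (scaffold 14, bases 46540198 to 46543740, minus strand), fell from 12.8 ± 2.16 to 1.19 ± 0.858 FPKM in the typical plant (edgeR adjusted p = 0.00506). In the variant it fell from 18.7 ± 5.51 to 2.00 ± 0.436 FPKM (edgeR adjusted p = 0.00399). NAC 43-like PH02Gene16123 (scaffold 22, bases 56963944 to 56966623, minus strand) fell in both plant types too, by 2.29 ± 0.72 and 3.90 ± 0.78 log2 units (edgeR adjusted p = 0.0124 and 0.000621). NAC 43-like PH02Gene12296 (scaffold 18, bases 13136140 to 13139020, plus strand) had 4.34, 5.28 and 5.43 FPKM in typical mature and 3.97, 2.46 and 0.83 FPKM in variant mature leaves. It was 1 of the 2 members called lower in variant mature leaves (-1.35 ± 0.38, edgeR adjusted p = 0.0182), with replicate 3 the lowest variant value, and it was not called with the groups compared fitted alone (edgeR adjusted p = 0.143). The other was NAC 35 PH02Gene29456, with 15.5 ± 3.74 against 19.6 ± 1.92 FPKM (-0.66 ± 0.21, edgeR adjusted p = 0.0332). That call was lost under 7 of 25 other settings, among them the groups compared fitted alone (edgeR adjusted p = 0.135), variant mature replicate 3 left out (0.109) and typical mature replicate 1 left out (0.111).

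Within the wall list some members differed between plant types in immature leaves, where 3 were higher and 2 lower in the variant, with a list median of -0.14 (-0.16 with the floor) and of 0 without TMM. Without variant mature replicate 3, which enters the shared estimate of spread, 3 were higher and 6 lower. The lower members were NAC 75 PH02Gene32948, with 0.502 ± 0.214 against 0.738 ± 0.185 FPKM (-0.98 ± 0.35, edgeR adjusted p = 0.0308), and NAC 7 PH02Gene09730, listed at 0 in all variant immature libraries and at most 0.152 FPKM in a typical one. The call of PH02Gene09730 was lost without typical immature replicate 1 (edgeR adjusted p = 0.098). The VND factors of Arabidopsis, VND3 and the NAC 7 protein among them, are switches of vessel formation. By its description PH02Gene34392 is a relative of VND3, and it had 0.111, 0 and 0 FPKM in typical and 2.08, 2.46 and 2.75 FPKM in variant immature leaves (5.44 ± 1.26, edgeR adjusted p = 0.00269). A second relative of VND3, PH02Gene32073, had 0, 0 and 0.189 FPKM against 2.75, 4.55 and 3.60 FPKM (5.25 ± 1.38, edgeR adjusted p = 0.00641). Each of these values rests on the count of a single typical immature library, and the first was 4.85 without typical immature replicate 3. NAC 7 PH02Gene20102 had 1.96 ± 0.359 against 5.87 ± 0.419 FPKM (1.14 ± 0.22, edgeR adjusted p = 0.000713). In young variant leaves PH02Gene34392 had 1.38 ± 0.442 FPKM, not called different from the 2.43 ± 0.334 FPKM in immature ones (edgeR adjusted p = 0.444). In the typical plant this gene fell from 1.21 ± 0.254 to 0.037 ± 0.0641 FPKM (-4.38 ± 1.22, edgeR adjusted p = 0.00593), and the difference between the plant types in this change was called (5.30 ± 1.56, edgeR adjusted p = 0.021), values that were -3.79 and 4.71 without typical immature replicate 3.

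Of 82 secondary wall genes, such as cellulose synthases and fasciclin-like proteins, 73 were tested. From young to immature leaves 12 rose and 23 fell in the typical plant, and 20 rose and 29 fell in the variant. From immature to mature leaves 39 fell in the typical plant, and 6 rose and 17 fell in the variant. Over all genes 13.2% rose and 16.2% fell in this change in the typical plant, and 15.8% rose and 11.6% fell in the variant. In mature leaves 45 of 73 were higher in the variant, against 14.9% of all genes tested. The summed level of the 82 genes there ran from 104.7 to 549.8 FPKM in the variant against 57.2 to 80.7 FPKM in the typical plant. All 48 xylem markers were among these 82 secondary wall genes, so the lists are not independent. The summed level of the 48 xylem markers was 403.8 to 494.3 FPKM in typical young, 116.4 to 262.6 in typical immature and 33.8 to 54.5 in typical mature leaves. In the variant it was 326.8 to 463.9, 164.9 to 172.0 and 71.5 to 138.7 FPKM, with 5 to 23 of the 48 genes listed at 0 in a group. Single xylem markers moved both ways, with 11 higher and 11 lower from young to immature leaves in the typical plant and 20 higher and 15 lower in the variant, and from immature to mature leaves 16 lower in the typical plant and 6 higher and 8 lower in the variant. Their part in the changes of the wall NAC members was not tested. The summed level of 20 markers of dividing cells was 1041 to 1324 FPKM in typical young and 35.3 to 46.02 FPKM in typical immature leaves, and in the variant it was 401.4 to 1227 and 54.7 to 64.1 FPKM.

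**Figure D5:**
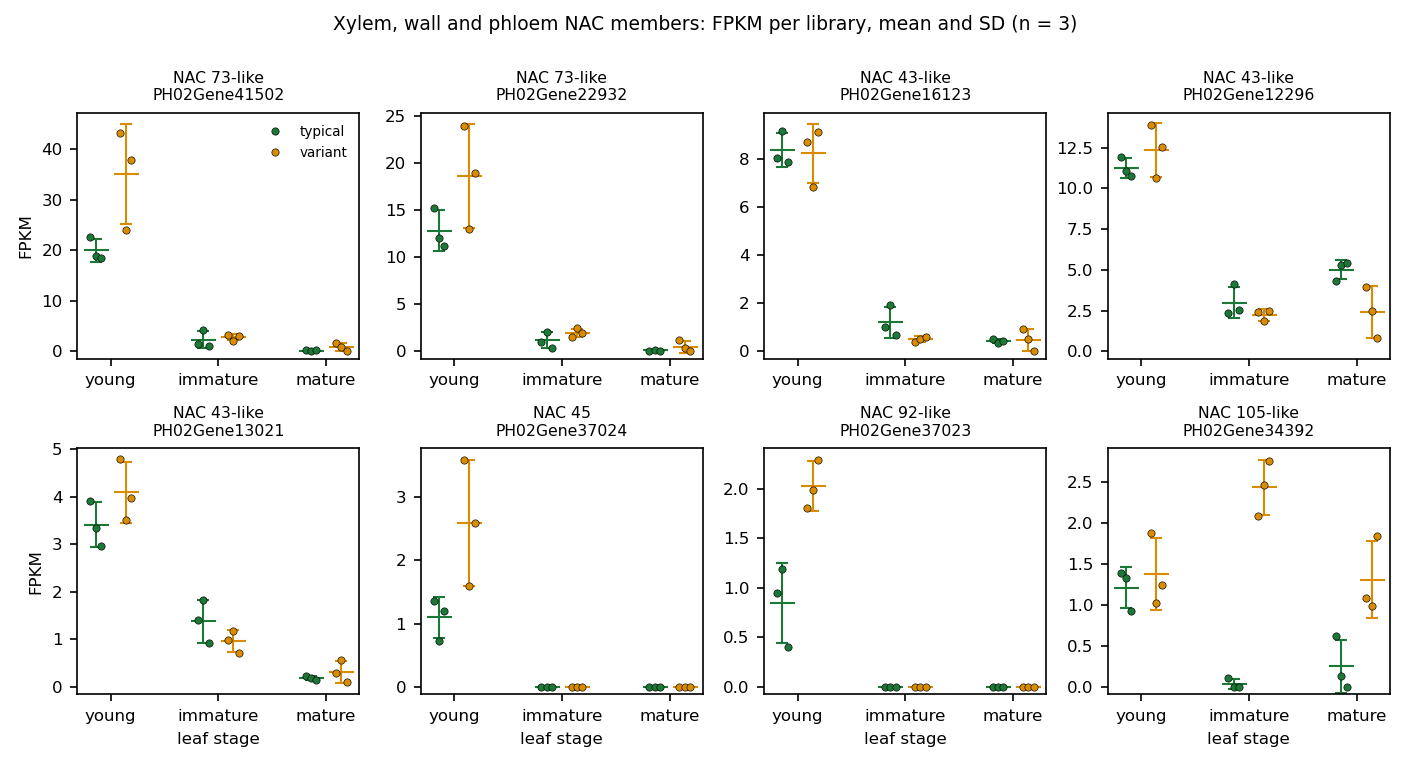
FPKM of 8 members with roles in walls, vessels or sieve elements, or next to such a gene, per library, with mean and SD (n = 3). The NAC 73-like and NAC 43-like genes are highest in young leaves of both plant types, NAC 45 and its neighbour are at 0 after the young stage, and PH02Gene34392, a relative of VND3, lies at 2.08 to 2.75 FPKM in variant immature leaves.

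NAC 45 is required in Arabidopsis for sieve elements of the phloem to clear their nucleus. NAC 45 PH02Gene37024 (scaffold 18, bases 22289875 to 22292124, minus strand) had 1.36, 0.729 and 1.20 FPKM in typical young and 3.59, 1.60 and 2.58 FPKM in variant young leaves. It was listed at 0 in all 12 libraries of immature and mature leaves. The young groups did not overlap but were not called different (1.20 ± 0.68, edgeR adjusted p = 0.841). The next NAC gene on the same strand, NAC 92-like PH02Gene37023, lay 2127 bases away and had the same pattern, with 0.949, 1.19 and 0.401 FPKM in typical young and 1.80, 1.99 and 2.296 FPKM in variant young leaves and 0 in all later libraries. NAC 104, called XND1 in Arabidopsis, holds back vessel formation there, and NAC 104 PH02Gene20782 was likewise seen in young leaves and listed at 0 later. The second NAC 45 gene, PH02Gene30295, reached at most 1.52 FPKM in young leaves and 0.463 FPKM afterwards. Another NAC 104 gene, PH02Gene06239, had 0.191, 0 and 0 FPKM in typical immature and 5.65, 4.52 and 3.56 FPKM in variant immature leaves (5.68 ± 1.13, edgeR adjusted p = 0.00127; 5.09 without typical immature replicate 3), a value that rests on the count of typical immature replicate 1 alone.

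More members were called between young and immature leaves than between immature and mature leaves. The same held for all genes, with 22412 against 11058 called in the typical plant and 20906 against 10275 in the variant. In the typical plant 43 rose and 20 fell, which is 40.2% and 18.7% of the members tested, against 29.2% and 30.4% of all genes. In the variant 50 rose and 19 fell, or 46.7% and 17.8%, against 27.0% and 28.6% of all genes. Of these, 35 rose in both plants (81.4% of those in the typical plant and 70% of those in the variant) and 15 fell in both (75% and 78.9%). The same overlaps over all genes are not given here. In the typical plant the share of calls that were rises was 68.3% with TMM and 57.9% without it, or 51.7% with limma on FPKM, beside 49.0%, 33.4% and 30.8% of all genes. The median of all genes fell by 0.57 log2 units without TMM. NAC 35 PH02Gene29456 rose from 0.25 ± 0.0341 to 14.8 ± 3.10 FPKM in the typical plant and from 0.306 ± 0.0595 to 15.5 ± 0.641 FPKM in the variant. That is 6.37 ± 0.27 and 5.73 ± 0.27 log2 units (edgeR adjusted p = 9.54e-10 and 3.14e-09). NAC 83 PH02Gene40703 rose as well, from 0.413 ± 0.189 to 5.81 ± 0.411 FPKM in the typical plant and from 0.722 ± 0.0918 to 14.4 ± 3.24 FPKM in the variant. A fall was seen in NAC 83-like PH02Gene07274, from 10.9 ± 0.905 to 2.04 ± 0.993 FPKM in the typical plant (edgeR adjusted p = 0.000485) and from 10.1 ± 0.423 to 2.08 ± 0.351 FPKM in the variant (edgeR adjusted p = 0.000249).

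From immature to mature leaves 8 members rose and 12 fell in the typical plant, against 13.2% and 16.2% of all genes, and 11 rose and 8 fell in the variant, against 15.8% and 11.6%. The share of rises went from 40% with TMM to 55.6% without it and 52.4% with limma on FPKM in the typical plant, and from 57.9% to 52.4% and 40.5% in the variant. Over all genes the share in the typical plant also rose without TMM, and went from 44.8% with TMM to 55.5% with limma on FPKM. In the variant it went from 57.7% to 50.8% and 45.4% over all genes, so these shifts are not particular to the members. A single member rose in both plants and a single member fell in both, without the same counts over all genes beside them. NAC 41 PH02Gene19621 rose in both, by 1.38 ± 0.28 log2 units in the typical plant (edgeR adjusted p = 0.00164) and by 1.97 ± 0.28 in the variant (edgeR adjusted p = 0.000221). Without variant mature replicate 3 the typical plant had 15 rises and the variant 13 falls.

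The test of the difference between plant types in the stage change, their interaction, called 10 members higher and 7 lower from young to immature leaves, against 12.5% and 13.9% of all genes. From immature to mature leaves it called 6 higher and 4 lower, against 11.1% and 6.34%. The share of higher calls among members was 58.8% with TMM, 79.2% without it and 83% with limma on FPKM for the first change, with 47.3%, 74.1% and 74.8% over all genes. For the second change it was 60%, 46.2% and 23.1% for members and 63.6%, 48.9% and 37.1% for all genes. Without variant mature replicate 3 the second change gave 12 higher and 12 lower. NAC 48 PH02Gene15515 rose from 0.984 ± 0.693 to 7.18 ± 3.80 FPKM between immature and mature typical leaves (2.82 ± 0.56, edgeR adjusted p = 0.00154) and was at 7.28 ± 1.56 and 6.85 ± 2.57 FPKM in the variant, and its interaction was -2.87 ± 0.75 (edgeR adjusted p = 0.0181). Without typical immature replicate 1 these values were 3.53 and -3.59, and without typical mature replicate 1 they were 2.22 and -2.27.

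Members called higher in the variant in immature and in mature leaves overlapped in 15 genes, which is 37.5% of the immature and 51.7% of the mature calls. The same overlap over all genes is not given here, so it is not known to be particular to these members. Among 26 pairs of tested members with the same description, 9 pairs were called in the same direction in immature leaves, 1 pair in opposite directions, 5 pairs in a single member and 11 pairs in neither. The opposite pair was described as NAC transcription factor M, with PH02Gene32686 higher (1.33 ± 0.43, edgeR adjusted p = 0.0192) and PH02Gene43882 lower (-3.34 ± 1.12, edgeR adjusted p = 0.0246). The first value was 1.96 without typical immature replicate 2, and the second call was lost without typical immature replicate 3 (-2.66, edgeR adjusted p = 0.0893) and rests on a count in variant immature replicate 2 alone. Along the scaffolds 9 pairs of neighbouring members, formed by 17 genes, lay within 100000 bases of each other. They included NAC transcription factor 1 PH02Gene19280 and NAC 92 PH02Gene19279, 63967 bases apart, both higher in variant immature leaves.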

How the data were processed

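Per the labels' protocols, cDNA was made from polyadenylated RNA with a modified oligo(dT) primer and amplified by PCR. No strand marking is described, so antisense reads cannot be told apart, and no molecular identifiers are described either. The standard errors and SDs given here include the spread between libraries. Tools named in the submitters' processing notes are cutadapt, FastQC and Salmon, and the genome build behind the table is not given in the sources used here. Estimated counts were deposited by the authors for every gene and library, and were rounded to whole numbers here. The authors also deposited FPKM, which divides by library size and gene length. Coordinates are those of the deposited table. A value of 0 may be a failed estimate, so such genes are described as listed at 0 and get no fold.

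Counts were tested with edgeR 4.0.16 in R 4.3.3 (glmQLFit, glmQLFTest), with TMM factors, 6 group means over 18 libraries and 12 residual degrees of freedom, after filterByExpr. This filter kept genes with at least 0.2078 CPM (counts scaled by library size) in at least 3 libraries and at least 15 counts in total. The CPM cut stands for 10 counts in a library of median size. P-values were adjusted over all 37595 genes by Benjamini-Hochberg. Typical immature libraries had TMM factors of 0.75 to 0.798, typical mature ones 0.80 to 0.858 and all others 1.03 to 1.18. With FPKM the ± gives the SD (n = 3), with a log2 fold change the standard error. This standard error was worked back from the test, as the absolute log2 fold change divided by the square root of the F statistic. Alternatives were DESeq2 1.42.0, limma 3.58.1 on log2(FPKM + 1), no filter, no TMM, summed near-alike libraries, the groups compared alone, a replicate block and each library left out. The edgeR steps were tested on simulated data.

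The members and lists were chosen with earlier results of these data known. Role lists came from the descriptions, and 3 members (both genes described as stress responsive NAC transcription factor, and NAM-D2) were placed after the descriptions were seen. Genes were named by rule: the 8 members with most RNA, the 6 largest called changes in each direction between plant types and the 4 largest in each stage comparison or interaction among members reaching 5 FPKM, the top member of each list, and members listed at 0 in a whole group with 5 FPKM or more in the other. Named outside the rule, after values were seen, were PH02Gene17999, PH02Gene07883, PH02Gene20102, PH02Gene19279, PH02Gene21976, PH02Gene05802, PH02Gene30295, PH02Gene37023, PH02Gene25075, PH02Gene06239, PH02Gene32073, PH02Gene34392, PH02Gene20782, PH02Gene33138, PH02Gene44613, PH02Gene32686, PH02Gene43882, PH02Gene19528, PH02Gene32948, PH02Gene09730, PH02Gene40492, PH02Gene37848, PH02Gene17085 and, in a plot, PH02Gene13021. The drought, senescence and meristem genes PH02Gene27068, PH02Gene49504, PH02Gene22037 and PH02Gene22367 are no members and were also named outside the rule. Members that the rule named but that are not described above include PH02Gene17994, PH02Gene44802, PH02Gene36805 and PH02Gene46116. The replicate numbers were not taken to pair the samples.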

Additional observations from a re-analysis of the deposited data

Results flagged for a closer look

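The interaction of plant type with leaf stage, tested with edgeR over all genes, was called for 17 members from young to immature leaves and for 10 from immature to mature leaves. These are 15.9% and 9.35% of the members tested. Of all genes 12.5% were called higher and 13.9% lower for the first change, and 11.1% and 6.34% for the second. Of the members called, 14 and 8 had counts in every group, and their values are differences of log2 fold changes, variant minus typical. From young to immature leaves the stress and senescence members NAC 67-like PH02Gene34765 (-3.58), NAC 67-like PH02Gene29164 (-3.58) and NAC 83-like PH02Gene05802 (-1.56) rose less or fell more in the variant, with PH02Gene29164 at -2.84 without variant young replicate 3. So did NAC 41 PH02Gene19621 (-1.75) and NAC 35 PH02Gene16115 (-1.44).

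Positive values were found for NAC transcription factor 1 PH02Gene19280 (5.65), the relatives of VND3 PH02Gene32073 (5.59) and PH02Gene34392 (5.30), and NAC 104 PH02Gene06239 (5.09). They were also found for NAC 21/22 PH02Gene07625 (2.40), NAC 52 PH02Gene32534 (1.48), NAC 83 PH02Gene21727 (1.43), NAC 7 PH02Gene20102 (0.94) and NAC 14 PH02Gene05356 (0.74). Leaving out 1 library moved PH02Gene19280 to between 4.93 and 6.72, and PH02Gene06239 and PH02Gene34392 to 4.50 and 4.71 without typical immature replicate 3. The values of PH02Gene06239, PH02Gene34392 and PH02Gene32073 rest on the count of a single typical immature library.

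From immature to mature leaves the value was positive for NAC 67-like PH02Gene34765 (3.26) and PH02Gene29164 (2.44), NAC 83-like PH02Gene05802 (1.61), NAC 67 PH02Gene04543 (1.47) and NAC 17 PH02Gene04645 (1.09). It was negative for NAC transcription factor 29-like PH02Gene19528 (-7.13), NAC 48 PH02Gene15515 (-2.87) and NAC 14 PH02Gene05356 (-0.64). PH02Gene19528 had 0, 3.64 and 4.03 FPKM in typical mature leaves, 4.35, 4.75 and 4.37 FPKM in variant immature leaves and 0.214, 0.186 and 0.523 FPKM in variant mature leaves.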

How the results depend on the processing

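Each test was repeated under 25 other settings, and counts are of members called higher or lower unless all genes are named. Every setting kept 24 of the 40 higher calls in immature and 13 of the 29 in mature leaves, while none of the 11 and 2 lower calls and none of the 4 young calls was kept under all of them. DESeq2 gave 10 higher and 1 lower in young leaves (501 genes of any kind), 13 higher from immature to mature typical leaves, and 12 and 9 lower for the interactions. With limma on FPKM all genes called in young leaves were 254, immature leaves had 6 lower and mature leaves 51 higher and 1 lower. Variant mature against immature leaves then had 22 lower. The first interaction had 39 higher and 8 lower, and the second had 6 higher and 20 lower. Without TMM there were 4 lower in immature and 1 lower in mature leaves. The first interaction then had 19 higher and 5 lower, and the second had 6 higher and 7 lower. Summing near-alike libraries left 0 calls in young leaves (0 of all genes), 24 higher and 0 lower in immature (6923) and 15 and 0 in mature leaves (3928), 4 lower from immature to mature typical leaves (6478), 9 lower from young to immature variant leaves (11896) and 0 and 0 from immature to mature variant leaves (855). The interactions then had 1 higher and 2 lower (2016), and 0 and 0 (224). The groups compared alone gave 2 higher in young leaves, 16 higher and 0 lower in mature leaves (2641), 5 higher from immature to mature typical leaves (7210), and 16 and 15 for the first and 3 higher for the second interaction (3408). Why these counts moved was not tested, except that summing leaves fewer libraries.

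Leaving out each library gave 2 to 6 higher and 0 to 0 lower in young, 33 to 44 and 5 to 16 in immature, and 22 to 31 and 1 to 3 in mature leaves. It gave 34 to 44 higher and 18 to 22 lower from young to immature and 6 to 15 and 6 to 16 from immature to mature leaves in the typical plant, and 43 to 54 and 17 to 21, then 8 to 13 and 3 to 13, in the variant. The interactions had 6 to 15 and 6 to 13, then 4 to 12 and 4 to 12. All genes ran from 5 to 159 in young, 14336 to 18562 in immature and 6385 to 9829 in mature leaves, from 20011 to 23637 and 8360 to 12900 in the typical plant, from 18185 to 22437 and 7377 to 11668 in the variant, and from 7596 to 12017 and 4312 to 9941 for the interactions. Without variant mature replicate 3 the counts were 15 higher from immature to mature typical leaves, 13 lower in the variant, 13 lower for the first and 12 and 12 for the second interaction. Immature lower calls were 7, 5, 6, 6 and 5 without typical immature replicate 1 or 3 or variant immature replicate 1, 2 or 3. Lower calls from immature to mature leaves were 7, 6 and 7 without typical immature replicate 1, typical mature replicate 2 or 3, and in the variant 5, 3, 5 and 4 without variant immature replicate 1, 2 or 3 or variant mature replicate 2. The first interaction had 6 higher without typical young replicate 3, variant immature replicate 2 or variant young replicate 1, and the second 7 lower without typical immature replicate 1. Mature leaves had 1 lower without typical mature replicate 2. Young leaves had 2 higher without typical immature replicate 1, typical mature replicate 2, typical young replicate 2 or 3, any variant immature library, variant mature replicate 1 or 2, or variant young replicate 1 or 3.

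NAC 82-like PH02Gene29132 changed sign in 2 comparisons. Its change from young to immature typical leaves was -0.0918 with limma on FPKM and -0.0904 without TMM, and its difference in immature leaves 0.0586 and 0.13. The first interaction of NAC 35 PH02Gene31596, was -5.72 with edgeR and 0.94 with limma on FPKM, but it is listed at 0 in typical young leaves, so the first value is set by the fit and is no fold. The young to immature change of NAC transcription factor 4 PH02Gene02411 in the typical plant was fitted at 5.60 and ran from 0 without typical immature replicate 1 to 6.20 without typical immature replicate 3, and since typical young leaves are listed at 0 these are set by the fit and are no fold or bound. NAC 41 PH02Gene36249 in mature leaves ran from -1.39 without variant mature replicate 3 to 0.79 without variant mature replicate 2.

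With the replicate number as a block, 38 genes were called in young leaves against 64, and no count of members moved by over 1.5 times. Same-numbered samples of both plant types at a stage had correlations of -0.0793 to 0.111 over 9 values, and 3 of 9 were closest to their own number. Over all 7 pairs of groups, stages included, correlations were -0.086 to 0.111, and 7 of 21 were closest to their own number. Each typical young library was closest to the typical immature library of its number, at correlations of 0.0183 to 0.0254. The numbers were not taken to pair the samples. Libraries of a group differed by more than sampling noise in every pair, with a mean chi-square per gene of 9.34 to 268. Members under 1 FPKM rest on few counts, and 487 of 2142 member values were 0.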
